A study of Mus musculus with 2 samples.

Results

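The enzymes that build and finish the sugar chains of mucins were followed through the cell classes of the mouse salivary gland, in single-nucleus RNA libraries. Members were chosen by name: every gene whose symbol starts with Galnt, Galntl, Gcnt, B3gnt, B3galt, St3gal, St6gal, St6galnac, C1galt, Mgat or Fut and a digit, leaving out entries that end in os or Rik. The rule found 74 of the 26033 gene entries, under 73 symbols, because St6galnac2 has 2 identifiers. Of the 74 members, 60 had at least 20 unique molecular identifiers (UMIs, counted RNA molecules) over the nuclei of both libraries, and 14 had fewer. By role, 19 members start O-glycans, 6 make or chaperone the core structures, 15 branch or extend chains, 15 add sialic acid, 8 add fucose and 11 are Mgat genes that branch N-glycans. The names therefore reach wider than mucin O-glycans: the 11 Mgat members, Fut8 and St6gal1 act mainly on N-glycans.

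Nuclei came from whole, unselected salivary gland of mice aged 20 days. The control library was C56BL/6 Csf2+/-, a genotype heterozygous for Csf2 (granulocyte-macrophage colony-stimulating factor), and the null library was C56BL/6 Csf2-/-. The labels name neither the gland, nor the sex, nor how many animals entered a library. Each genotype had 1 library, so genotypes could not be tested against each other, and every interval below is a 95% interval that covers counting error only. Csf2 itself had 5 UMIs over all control barcodes and 0 over all null barcodes, too few to check the labels.

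Mucin-type O-glycans begin in the Golgi when a GALNT enzyme attaches N-acetylgalactosamine to a serine or threonine of the mucin protein. C1GALT1, which needs the chaperone C1GALT1C1, adds galactose to form core 1, GCNT enzymes branch core 1 into core 2, and B3GNT6 forms core 3 instead. Other B3GNT and B3GALT enzymes lengthen the branches, and ST3GAL, ST6GAL, ST6GALNAC and FUT enzymes cap them with sialic acid or fucose. In salivary glands, mucous acinar cells secrete heavily O-glycosylated gel-forming mucins, seromucous and serous acinar cells secrete smaller glycoproteins and enzymes, and ducts modify the saliva.

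The control library held 68460 barcodes and the null library 74339, and 1367 barcode sequences occurred in both. After filtering, 67940 and 55517 barcodes remained, of which 87.3% and 74.3% fell into 4 clusters that carried mainly RNA from outside nuclei, called free RNA below. The remaining 8657 control and 14273 null nuclei had median depths of 2806 and 1951 UMIs and held 405429 UMIs of members. Clustering that barred the members from the genes used gave 13 nuclear classes, 10 of them named from marker lists. These were mucous acinar-like (346 control and 949 null nuclei), seromucous acinar-like (3841 and 6955), intercalated duct-like (376 and 591), luminal duct-like (972 and 1262), ionocyte-like (194 and 209), myoepithelial and basal-like (342 and 471), fibroblast-like (1157 and 1699), endothelial-like (134 and 153), Schwann-like (94 and 117) and macrophage-like (365 and 487). The other 3 are called by their leading genes: Myrfl/Kcne1 (122 and 273), Pex5l/Unc5c (648 and 980) and Knl1/Neil3 (66 and 127). The Myrfl/Kcne1 cluster carried 4 of the 17 seromucous markers, as did the class named seromucous, but different ones. The mucous class rested on 5 of 11 markers and the intercalated duct class on 4 of 9. The intercalated duct markers summed to 0.829% and 0.933% of UMIs in the class named for them, close to the shares in macrophage-like nuclei (0.754% and 0.951%). In the Pex5l/Unc5c cluster they summed to 4.34% and 4.08%, but that cluster reached 3 markers of no list. Most of the sum in both clusters was 1 gene, Smgc. Per 1000000 UMIs it had 7312 and 8400 counts in intercalated duct-like and 43041 and 40387 in Pex5l/Unc5c nuclei. Smgc was not among the 4 markers behind the name and was also abundant in free RNA, at 18549 and 20235. The sums therefore do not decide the name, which is weakly supported. In addition, the fibroblast class carried 6 of the 8 pericyte and smooth muscle markers, and the macrophage class also carried 10 of the 11 lymphoid markers. Pairs of values below are control first and null second, and a level is in CPM, counts per 1000000 UMIs of the class. A difference was called when it passed 2-fold with a 95% interval that leaves out 0 on the log2 scale, in both libraries where classes were compared.

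Summed over all 74 members, the acinar-like nuclei devoted the most RNA to these enzymes. Member RNA made up 12283 and 10758 CPM in mucous acinar-like nuclei, 10392 and 8566 CPM in seromucous acinar-like nuclei and 12425 and 10707 CPM in the Myrfl/Kcne1 cluster. Luminal duct-like nuclei had 3448 and 3343 CPM. These sums are dominated by the sialyltransferases, which held 225338 of the 405429 member UMIs, and by the GALNT group with 105238. Fucosyltransferases were distributed differently, since their summed level was 663 and 513 CPM in intercalated duct-like nuclei, 618 and 450.2 CPM in the Myrfl/Kcne1 cluster and 632 and 471 CPM in ionocyte-like nuclei, against 40.7 and 36.4 CPM in seromucous acinar-like nuclei. Of the 53 members with enough UMIs to compare classes, 43 were called higher in at least 1 class than in the other nuclei of the same library: 17 in 1 class, 15 in 2, 8 in 3 and 3 in 4 classes. Of all 14579 genes tested, 40.8% were called higher in at least 1 class.

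Per class, the number of the 53 members called higher than in the other nuclei was read against the share of all 14579 tested genes called the same way. Mucous acinar-like nuclei had 11 members called higher (background 3.34%), the Myrfl/Kcne1 cluster 8 (1.54%), seromucous acinar-like nuclei 4 (2.01%) and the Pex5l/Unc5c cluster 4 (2.37%). Of the duct classes, there were 4 in luminal duct-like nuclei (6.08%), 3 in ionocyte-like nuclei (3.16%) and 2 in intercalated duct-like nuclei (3.37%). Among stromal and immune classes there were 14 in macrophage-like (9.56%), 11 in fibroblast-like (11.9%), 9 in endothelial-like (5.6%) and 9 in Schwann-like nuclei (5.06%). Myoepithelial and basal-like nuclei had 4 (6.52%), and the Knl1/Neil3 cluster, led by cell division genes, had 0 (3.16%). Members called lower numbered 27 in seromucous acinar-like (23.9%), 11 in mucous acinar-like (9.12%), 9 in Myrfl/Kcne1 (5.65%) and 15 in Pex5l/Unc5c nuclei (10.6%). Luminal duct-like nuclei had 16 called lower (9.23%), ionocyte-like 10 (4.6%), intercalated duct-like 14 (5.88%) and myoepithelial and basal-like 11 (5.86%). The other lower counts were macrophage-like 8 (6.67%), fibroblast-like 11 (6.85%), endothelial-like 7 (3.38%), Schwann-like 7 (3.59%) and Knl1/Neil3 6 (3.7%). The classes differ in their number of nuclei, so these counts are not compared between classes.

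**Figure D1:**
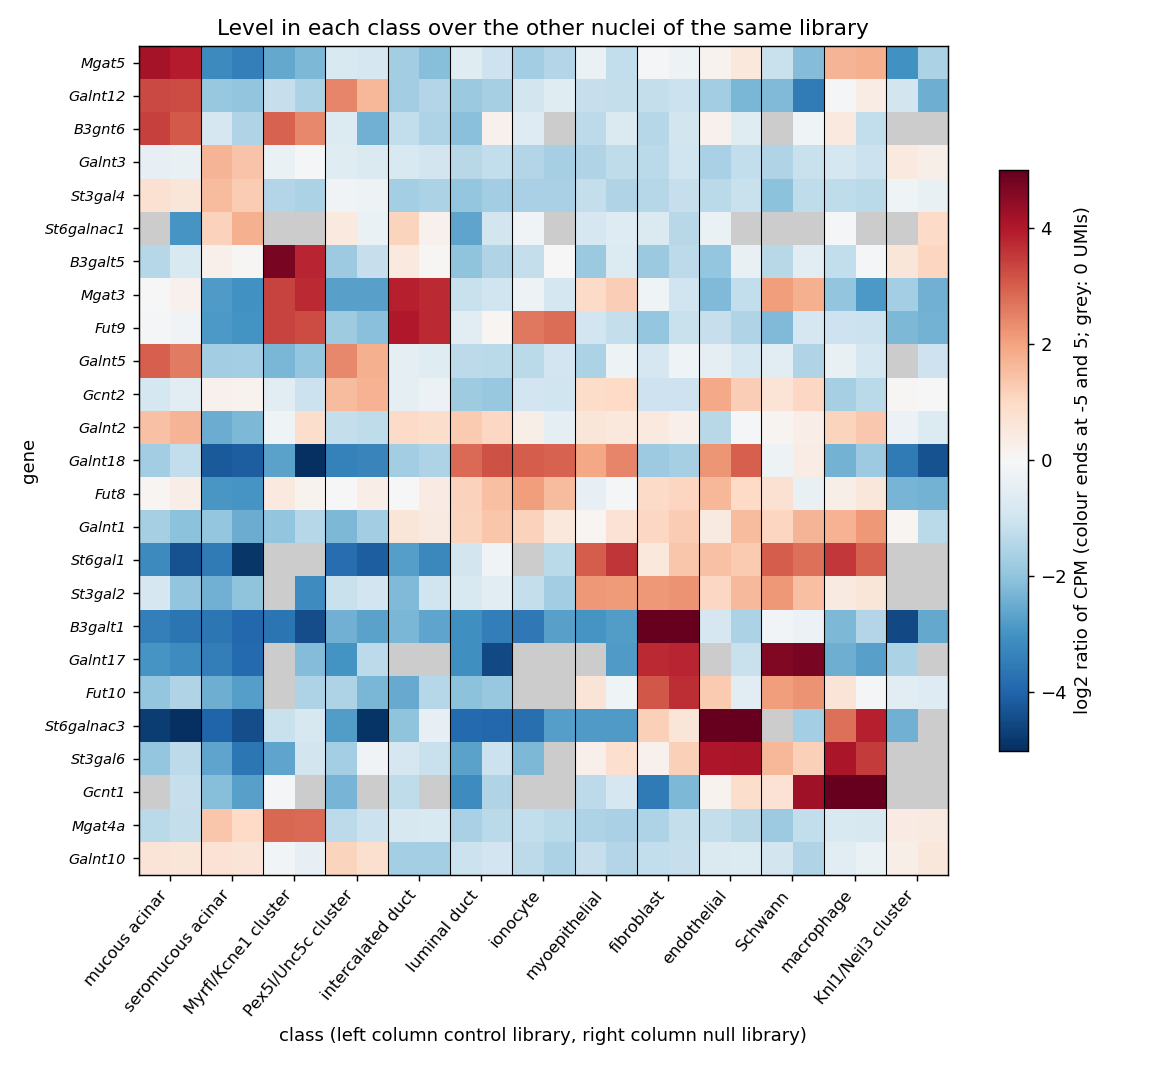
Levels of 25 members in each of the 13 classes relative to the other nuclei of the same library. Each row is a gene, each pair of columns a class (control left, null right), and colour is the log2 ratio of CPM, with grey where a class had 0 UMIs; the 25 rows are the members among the 3 highest of any class. The control and null columns of a class are alike in colour for most genes, with the rows of Mgat5, Galnt12 and B3gnt6 reddest in the mucous acinar-like class and that of B3galt5 in the Myrfl/Kcne1 cluster.

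Different GALNT genes, which start the chains, were high in different classes. Galnt12, which encodes a polypeptide GalNAc-transferase active on mucin peptides, stood at 249.8 CPM (223 to 279) and 273 CPM (252 to 295) in mucous acinar-like nuclei and at 14.2 and 17.9 CPM in seromucous acinar-like nuclei. The intervals of the 2 acinar classes lay far apart in both libraries, and the only other class with a comparable level was Pex5l/Unc5c, at 147 and 132 CPM. Galnt5 followed the same 2 classes, with 67.1 and 51.6 CPM in mucous acinar-like nuclei and 45.5 and 35.3 CPM in the Pex5l/Unc5c cluster against 4.76 and 5.35 CPM in seromucous acinar-like nuclei. Galnt2, a widely expressed initiating enzyme, was at 110.0 and 102 CPM in mucous acinar-like and 90.4 and 69.3 CPM in luminal duct-like nuclei but at 11.7 and 11.9 CPM in seromucous acinar-like nuclei. Galnt4, a follow-up enzyme that prefers peptides already carrying GalNAc, was lower in count, with 19 and 28 UMIs in mucous acinar-like nuclei, or 14.8 and 11.7 CPM, against 2.33 and 3.81 CPM in seromucous acinar-like nuclei. Its annotated exons lie inside the Poc1b gene on the same strand, so these reads cannot be assigned with certainty.

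Galnt3, Galnt7 and Galnt10 were also high in acinar-like nuclei. Galnt3 was the GALNT gene called higher in seromucous acinar-like nuclei than in the other nuclei, at 488 and 477 CPM against 222 and 243 CPM in mucous acinar-like nuclei. Galnt7, which adds GalNAc to partly glycosylated peptides, was highest in mucous acinar-like nuclei at 2372 and 1877 CPM and reached 1478 and 1083 CPM in seromucous acinar-like nuclei. Galnt10 was at 519 and 462 CPM in the Pex5l/Unc5c cluster, 394 and 409.5 CPM in mucous and 338 and 350.2 CPM in seromucous acinar-like nuclei. Free RNA also contained 718 and 449 CPM of Galnt7 and 276 and 215 CPM of Galnt3. The luminal duct-like levels of Galnt3 were 122 and 139 CPM, below the free RNA level itself. The free RNA profile would give 92.8 and 80.8 CPM there if it brought in all of the class's 8 most abundant secretory transcripts. How much of the luminal duct-like level is expression in these nuclei was not tested.

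Galntl6 and Galnt7 are neighbours in the genome, at chr8:57774052-58912640 and chr8:57523828-57653032 on the minus strand (GRCm38, GENCODE M21 annotation). Galntl6, a GALNT relative, was at 25 and 36.5 CPM in mucous acinar-like, 23.5 and 20.1 CPM in Pex5l/Unc5c and 4.0 and 7.03 CPM in luminal duct-like nuclei. Both genes were called higher in mucous acinar-like nuclei than in the other nuclei and lower in luminal duct-like than in seromucous acinar-like nuclei.

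Galnt18, Galnt1, Galnt17, Galnt16 and Galnt15 had their high levels outside the acini. Galnt18 was at 617 and 413 CPM in ionocyte-like, 393 and 439 CPM in endothelial-like, 359.9 and 300.2 CPM in luminal duct-like and 306 and 281 CPM in myoepithelial and basal-like nuclei. In seromucous acinar-like nuclei it was at 7.99 and 5.79 CPM. Galnt1, one of the most broadly used initiating enzymes, ranged from 11.7 and 7.55 CPM in mucous acinar-like to 111 and 120.0 CPM in macrophage-like nuclei. Galnt17, a brain-enriched GALNT relative, was at 229.9 and 157 CPM in Schwann-like and 52.5 and 32.8 CPM in fibroblast-like nuclei, and at no more than 3.88 CPM in any other class of either library. Galnt16 was found in the same 2 classes, at 23.8 and 46.7 CPM in Schwann-like and 15.8 and 8.37 CPM in fibroblast-like nuclei, and Galnt15 in endothelial-like nuclei at 43.9 and 80.7 CPM. Galnt11 differed little among classes, with 67.9 and 67.1 CPM in mucous acinar-like and 64 and 57.9 CPM in luminal duct-like nuclei. Galnt9 and Galntl5 had 0 UMIs in nuclei.

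Of the core enzymes, C1galt1 was detected in all 13 classes, and B3gnt6 was called higher in 2. C1galt1, the core 1 synthase, was at 461 and 369 CPM in the Myrfl/Kcne1 cluster, 229 and 194 CPM in mucous acinar-like, 224 and 159 CPM in seromucous acinar-like and 197 and 190.4 CPM in luminal duct-like nuclei. It was called higher than in the other nuclei in the Myrfl/Kcne1 cluster, and lower in the Pex5l/Unc5c cluster, at 59.8 and 49.5 CPM, and in myoepithelial and basal-like nuclei, at 63.7 and 46 CPM. Its chaperone gene C1galt1c1 was at 8.59 and 5.87 CPM in mucous acinar-like and 6.73 and 6.23 CPM in seromucous acinar-like nuclei, below its free RNA level of 12 and 10.3 CPM.

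B3gnt6, the core 3 synthase known from colonic mucus, had 22 and 63 UMIs in mucous acinar-like nuclei, or 17.2 CPM (10.8 to 26) and 26.4 CPM (20.3 to 33.8). In the Myrfl/Kcne1 cluster it was at 16.4 CPM (6.59 to 33.7) and 23.8 CPM (13.3 to 39.2), on 7 and 15 UMIs. Seromucous acinar-like nuclei had 1.62 and 2.42 CPM, no higher than the free RNA at 2.83 and 5.87 CPM. The mucous and Myrfl/Kcne1 levels overlapped in their intervals, and the mucous interval lay above the seromucous one in both libraries. The core 2 branching genes were scarce in acinar-like nuclei. Gcnt1, the leukocyte-type core 2 enzyme, was at 51.7 and 36.8 CPM in macrophage-like nuclei, with 47 and 34 UMIs, and had 0 and 2 UMIs in mucous acinar-like nuclei, where 3 counts would be 2.34 and 1.26 CPM. Gcnt3, the mucin-type core 2 and core 4 enzyme, had 2 and 2 UMIs in mucous and 8 and 6 UMIs in seromucous acinar-like nuclei, and Gcnt4 had 4 UMIs over all nuclei.

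**Figure D2:**
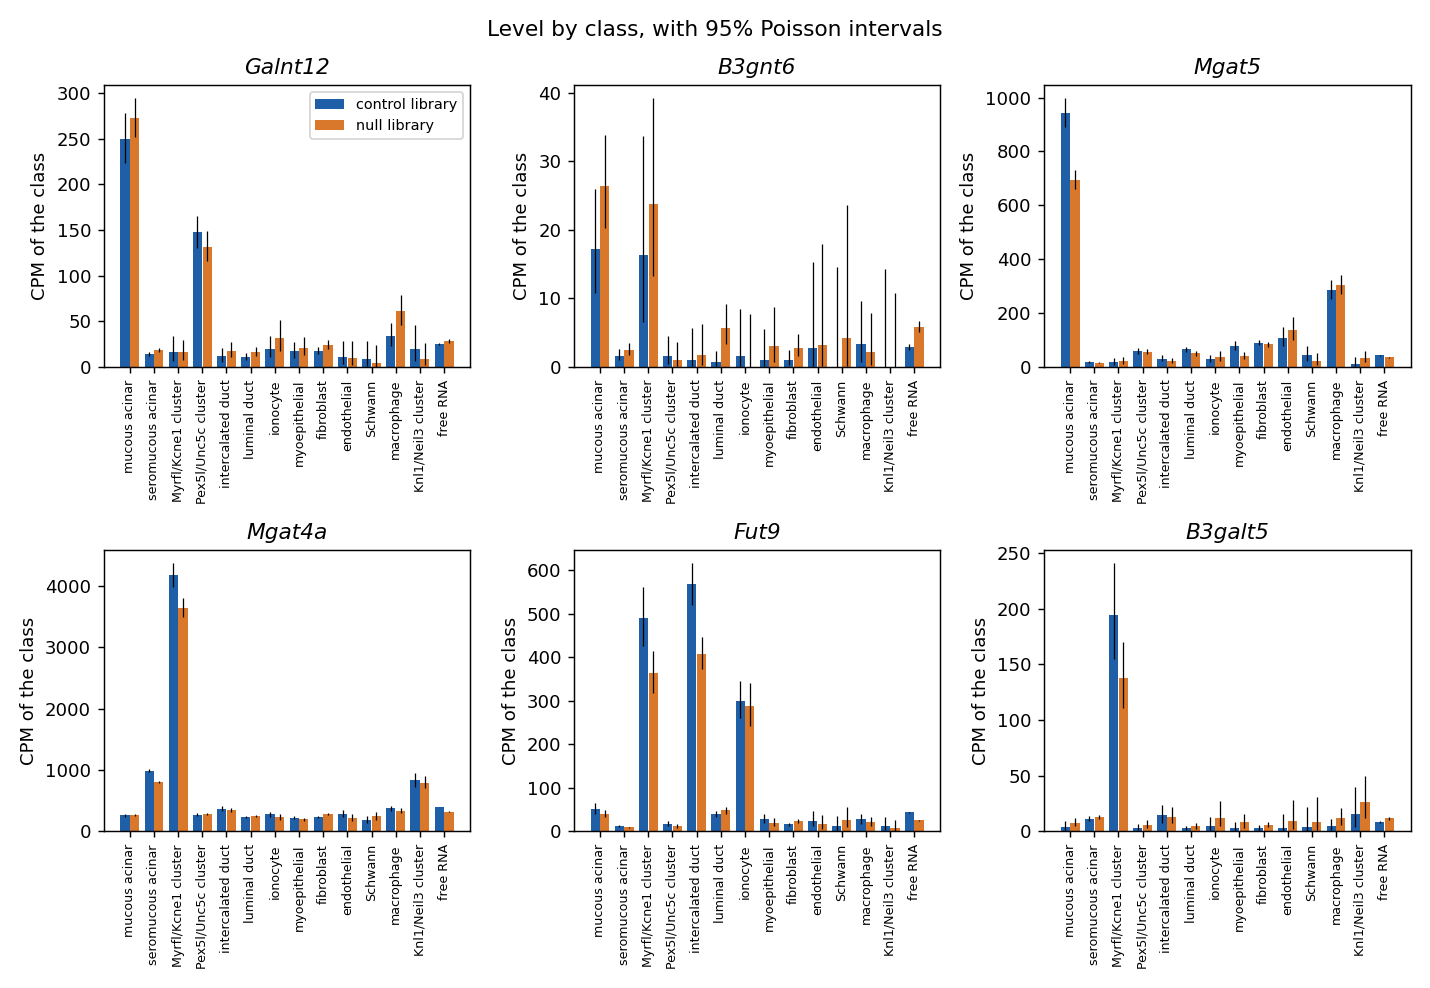
Levels of Galnt12, B3gnt6, Mgat5, Mgat4a, Fut9 and B3galt5 by class, in CPM of the class. Bars are the control (blue) and null (orange) library, lines are 95% Poisson intervals of the count, and the last pair of bars is the free RNA. Galnt12 is high in mucous acinar-like and Pex5l/Unc5c nuclei, Mgat5 in mucous acinar-like nuclei with a lower level in macrophage-like nuclei, and Mgat4a and B3galt5 in the Myrfl/Kcne1 cluster.

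Among the branching and extending enzymes, B3galt5 marked the Myrfl/Kcne1 cluster and B3galt1 the fibroblasts. B3galt5, which adds galactose to make type 1 chains, was at 194 CPM (155 to 241) and 138 CPM (110.5 to 170.1) in the Myrfl/Kcne1 cluster. The next highest level in either library was 26.3 CPM, in the null Knl1/Neil3 cluster. B3galt1, a second type 1 chain galactosyltransferase, was at 489.5 and 398 CPM in fibroblast-like nuclei, and the Schwann-like nuclei came next at 79.3 and 55.2 CPM. Gcnt2, which makes I-type branches, was at 242 and 171 CPM in endothelial-like, 174 and 210.1 CPM in Pex5l/Unc5c and 123 and 143 CPM in myoepithelial and basal-like nuclei, against 37.5 and 50.4 CPM in mucous acinar-like nuclei. The Pex5l/Unc5c level lay above that of seromucous acinar-like nuclei, which had 73.2 and 78.8 CPM.

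The smaller members of this group were closer to the counting limit. B3gnt9 was at 9.37 and 15.1 CPM in mucous and 3.59 and 6.74 CPM in seromucous acinar-like nuclei, and its gene overlaps D230025D16Rik on the other strand. B3gnt2, a main poly-N-acetyllactosamine synthase, had 8.26 and 7.08 CPM in fibroblast-like and 1.71 and 1.10 CPM in seromucous acinar-like nuclei. Gcnt7 was nearly even over the classes and lay above its free RNA level of 2.10 and 3.45 CPM, but its gene overlaps Rtf2 on the other strand. B3gnt3, the core 1 extending enzyme of lymphoid vessels, had 9 control and 13 null UMIs over all nuclei, and B3gnt4 and B3gnt7 had 6 and 5 UMIs over both libraries.

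Sialyltransferase genes differed in the classes where they were highest. St3gal1, which caps core 1 with alpha2,3-linked sialic acid, was at 3926 and 3463 CPM in the Myrfl/Kcne1 cluster, 3002 and 3067 CPM in mucous acinar-like and 2701 and 2314 CPM in seromucous acinar-like nuclei. Luminal duct-like nuclei had 465 and 501 CPM, of which the free RNA profile would account for 244 and 217 CPM by its secretory transcripts. St3gal4, which sialylates galactose at the ends of type 2 chains, was at 3737 and 2868 CPM in mucous and 3713 and 2920.2 CPM in seromucous acinar-like nuclei, and at 838 and 656 CPM in the Myrfl/Kcne1 cluster. The Myrfl/Kcne1 cluster thus had the highest St3gal1 level. Its St3gal4 level was near that of luminal duct-like nuclei, which had 663 and 635 CPM, though it carried acinar markers. Both St3gal4 levels lay below that of free RNA, 1206 and 789 CPM.

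St3gal3, another alpha2,3-sialyltransferase, separated the acinar classes by over 2-fold in both libraries. It was at 133 CPM (113 to 154) and 116 CPM (103 to 130.3) in mucous acinar-like nuclei and at 3.23 and 2.05 CPM in seromucous acinar-like nuclei, and had 0 and 0 UMIs in the Myrfl/Kcne1 cluster, where 3 counts would be 7.02 and 4.76 CPM. Macrophage-like nuclei came next after mucous ones, at 101 and 71.4 CPM. St3gal5, the GM3 ganglioside synthase, was at 37.5 and 42 CPM in mucous acinar-like, 49.1 and 59.3 CPM in Pex5l/Unc5c and 55.5 and 59.4 CPM in Schwann-like nuclei, against 10.9 and 10.1 CPM in seromucous acinar-like nuclei.

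St6galnac1, which makes the sialyl-Tn structure on mucins, was scarce and ran the other way. It had 56 and 69 UMIs in seromucous acinar-like nuclei, or 5.03 and 5.06 CPM, and 0 and 1 UMIs in mucous acinar-like nuclei. In the control library this is at least 2.15-fold lower, taking 3 counts for the mucous class. The St6galnac1 level in free RNA was 3.38 and 2.03 CPM. St6galnac2, under the better covered of its 2 identifiers, was at 16.3 and 12.7 CPM in luminal duct-like, 17.3 and 13.9 CPM in intercalated duct-like and 2.87 and 3.08 CPM in seromucous acinar-like nuclei. The 2 St6galnac2 entries overlap on the same strand, and the other one had 11 UMIs in nuclei.

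St6gal1, St6galnac3, St3gal6 and St3gal2 had their high levels outside the acini, in stromal, immune or myoepithelial and basal-like nuclei. St6gal1, which adds alpha2,6-linked sialic acid to N-glycans, was at 228 and 103 CPM in macrophage-like, 206 and 102 CPM in Schwann-like and 173 and 139 CPM in myoepithelial and basal-like nuclei, and at 3.12 and 0.839 CPM in mucous acinar-like nuclei. St6galnac3 was at 620.5 and 510.3 CPM in endothelial-like and 113 and 144 CPM in macrophage-like nuclei. St3gal6 shared those 2 classes, at 195 and 216 CPM in endothelial-like and 155 and 128 CPM in macrophage-like nuclei. St3gal2 was spread over fibroblast-like (40.1 and 41.9 CPM), myoepithelial and basal-like (54.9 and 55 CPM) and Schwann-like (59.5 and 38.2 CPM) nuclei. Among the scarcer St6galnac members, St6galnac6 was highest in Schwann-like nuclei of the control library and in fibroblast-like nuclei of the null library.

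Of the fucosyltransferases, Fut8 and Fut9 had the highest levels. Fut9, which makes the Lewis x structure, was at 567 CPM (521 to 617) and 408 CPM (372 to 447) in intercalated duct-like nuclei, 491 and 365 CPM in the Myrfl/Kcne1 cluster and 300.4 and 289 CPM in ionocyte-like nuclei. The intercalated duct-like and Myrfl/Kcne1 levels had overlapping intervals, and the ionocyte-like level was lower in both libraries. Mucous acinar-like nuclei had 51.5 and 40.7 CPM and seromucous acinar-like nuclei 11.8 and 9.38 CPM, beside 43.8 and 25.2 CPM in the free RNA. Fut8, the core fucosyltransferase of N-glycans, was at 308 and 172 CPM in ionocyte-like, 239 and 119.5 CPM in endothelial-like and 152 and 145 CPM in luminal duct-like nuclei and at 16.4 and 12.5 CPM in seromucous acinar-like nuclei. Fut10 followed the stroma, at 23.8 and 21.2 CPM in Schwann-like and 22.6 and 21 CPM in fibroblast-like nuclei.

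Fut2, the secretor enzyme that makes the H structure of mucous secretions, was scarce in these nuclei. It had 0 and 0 UMIs in mucous acinar-like nuclei, where 3 counts would be 2.34 and 1.26 CPM, 3 and 6 in the Myrfl/Kcne1 cluster and 7 and 5 in intercalated duct-like nuclei, or 7.02 and 9.51 CPM and 7.14 and 4.35 CPM for the last 2. Fut1, the other H-forming enzyme, had 6 UMIs over all nuclei, Fut4 had 8 control and 12 null UMIs, and Fut7, the leukocyte selectin-ligand enzyme, had 10.

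The members not yet described were scarce. B3galt4 (190 UMIs over all nuclei), B3galt6 (246) and B3gnt8 (83) were at 5.12 and 3.81, 5.21 and 4.91 and 1.26 and 1.69 CPM in seromucous acinar-like nuclei, the largest class. Galnt6 had 73 UMIs, with 8 and 12 in macrophage-like nuclei, or 8.81 and 13 CPM. St6galnac4 had 71 and St6galnac5 57 UMIs, the latter with 10 and 22 in fibroblast-like nuclei, and B3gnt5, the lactotriaosylceramide synthase, had 20. Among those under 20 UMIs, Mgat5b had 19, Mgat4e 6, St6gal2 4, Mgat4f 2, Mgat4d 1 and B3galt9 0.

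The Mgat members included some of the widest acinar differences. Mgat5, which makes the beta1,6 branch of complex N-glycans, was at 943 CPM (890.4 to 998) and 695 CPM (662 to 729.6) in mucous acinar-like nuclei and at 16.9 and 14.9 CPM in seromucous acinar-like nuclei. Macrophage-like nuclei had 286 and 304 CPM, and the remaining classes no more than 136 CPM. Mgat4a, which makes the beta1,4 branch on the other arm, had the opposite pattern: 4177 CPM (3985 to 4375) and 3650.5 CPM (3503 to 3803) in the Myrfl/Kcne1 cluster, 992 and 799 CPM in seromucous and 259.9 and 266 CPM in mucous acinar-like nuclei. The mucous value was below the 398 and 319 CPM of the free RNA. Mgat3, whose bisecting residue blocks further branching, was at 122 and 139 CPM in intercalated duct-like nuclei and 115 and 163 CPM in the Myrfl/Kcne1 cluster, the 2 classes that were also highest for Fut9. Mgat1 and Mgat2, which act at the first steps for all complex N-glycans, varied less, with 18.4 and 13.2 CPM and 22.7 and 33.7 CPM in seromucous acinar-like nuclei and 23.4 and 19.3 CPM and 9.37 and 18.5 CPM in mucous acinar-like nuclei.

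Of the clusters called by their leading genes, Myrfl/Kcne1 and Pex5l/Unc5c had several members called higher. In the Myrfl/Kcne1 cluster the 8 members called higher than in the other nuclei were Mgat4a, Mgat3, Fut9, Fut2, C1galt1, B3gnt6, St3gal1 and B3galt5. The 9 called lower there were Mgat5, B3galt1, St3gal3, Galnt12, Galnt18, St3gal2, St3gal4, St6gal1 and Galnt1, so sialyltransferases were called in both directions. The log2 ratios over the other nuclei were 4.74 (4.35 to 5.12) and 3.80 (3.44 to 4.15) for B3galt5, 3.40 and 3.75 for Mgat3, 3.36 and 3.24 for Fut9 and 2.85 and 2.82 for Mgat4a. In the Pex5l/Unc5c cluster the 4 members called higher were Galnt5 (2.40 and 1.78), Galnt12 (2.43 and 1.68), Gcnt2 (1.56 and 1.72) and St3gal5 (1.51 and 1.76). Of these, Galnt5, Galnt12 and St3gal5 were also called higher in mucous acinar-like nuclei. In intercalated duct-like nuclei the 2 called higher were Fut9, at 4.01 and 3.72, and Mgat3, at 3.87 and 3.74.

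The direct comparison of mucous with seromucous acinar-like nuclei asked which enzymes differ between these 2 classes, and covered 40 members with enough UMIs. In both libraries 13 of the 40 were called higher in mucous acinar-like nuclei, against 7.55% of all genes tested the same way, and 2 were called lower, against 2.87%. The 13 spanned every role: Galnt2, Galnt4, Galnt5, Galnt12 and Galnt18 of the initiating genes, B3gnt6 of the core genes, B3gnt9 of the extending genes, St3gal3 and St3gal5 of the sialyltransferases, Fut8 and Fut9 of the fucosyltransferases, and Mgat3 and Mgat5 of the N-glycan genes. The 2 lower members were Mgat4a and St6galnac1. Not all of the 13 were high in mucous acinar-like nuclei when set against all other nuclei. There, Fut8, Fut9 and Mgat3 were not called higher, and Galnt18 was called lower. Galnt18 was at 27.3 and 26.4 CPM in mucous acinar-like nuclei, beside 24.2 and 12.2 CPM in free RNA. Mgat5, St3gal3, St3gal5, Galnt2, Galnt18, Fut8, Fut9 and Mgat3 were also called higher in luminal duct-like than in seromucous acinar-like nuclei. Over the 37 members with a ratio in both libraries the median log2 ratio of mucous over seromucous was 0.52, beside 0.01 over all 12124 genes with a ratio. St6galnac1, St6galnac2 and B3galt4 had no ratio, with 0 control UMIs in mucous and 56, 32 and 57 in seromucous acinar-like nuclei. The member median therefore leaves out only members that were low in the mucous class of the control library.

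The log2 ratio of Mgat5 was 5.80 (5.58 to 6.03) and 5.54 (5.33 to 5.76), that of St3gal3 5.36 (4.83 to 5.92) and 5.82 (5.26 to 6.43) and that of Galnt12 4.14 (3.86 to 4.42) and 3.93 (3.72 to 4.15). For the core 3 gene B3gnt6 it was 3.41 (2.44 to 4.39) and 3.45 (2.82 to 4.10), and for Galnt5 3.82 (3.31 to 4.34) and 3.27 (2.84 to 3.71). All of these intervals lie above a 2-fold difference. Galnt2 (3.24 and 3.09), Fut8 (2.35 and 2.54), Mgat3 (2.17 and 2.52), Fut9 (2.13 and 2.12), Galnt18 (1.77 and 2.19), St3gal5 (1.79 and 2.05), Galnt4 (2.67 and 1.62) and B3gnt9 (1.38 and 1.16) followed. Mgat4a stood at -1.93 (-2.09 to -1.77) and -1.59 (-1.71 to -1.47). Among members that were not called, St3gal4 had ratios of 0.01 and -0.03, St3gal1 of 0.15 and 0.41, C1galt1 of 0.03 and 0.29, Galnt7 of 0.68 and 0.79 and Galnt3, past 2-fold in 1 library only, of -1.14 and -0.97.

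**Figure D3:**
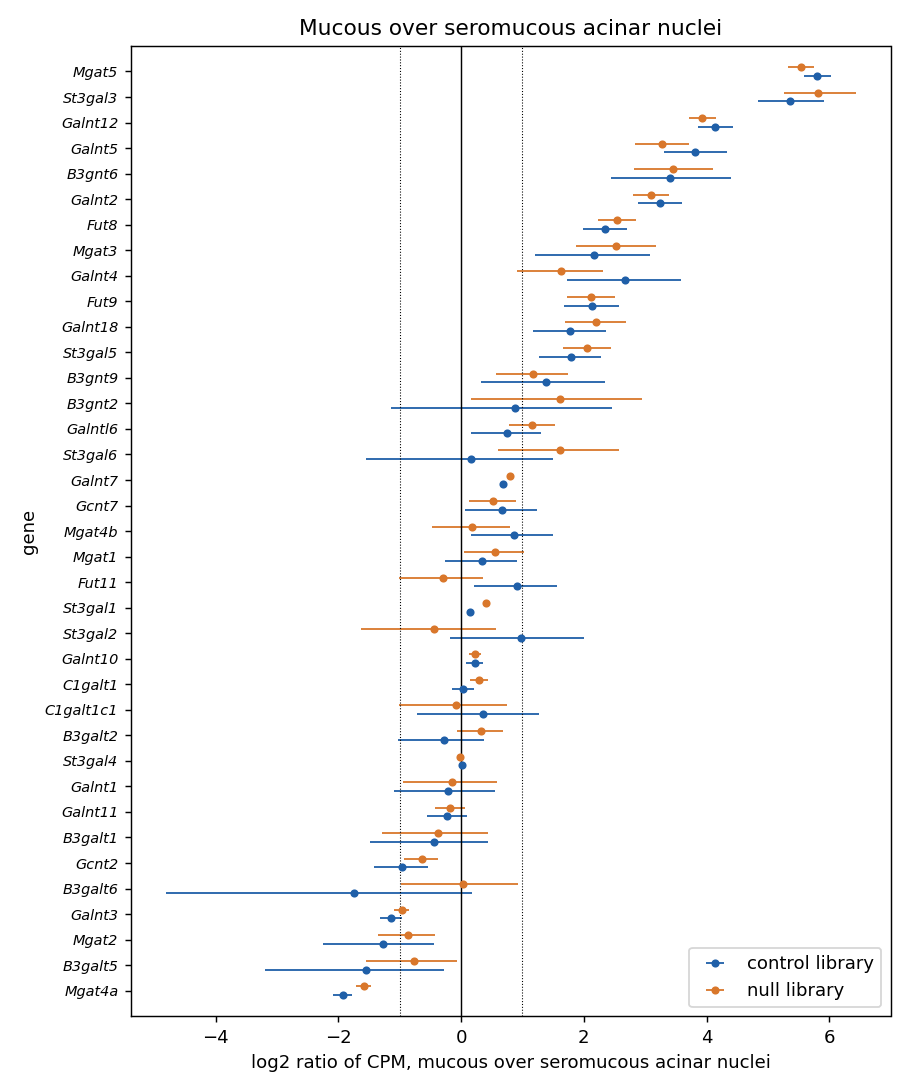
Log2 ratio of CPM in mucous over seromucous acinar-like nuclei for the 37 tested members with UMIs in both classes of both libraries. Points are the control (blue) and null (orange) library, lines are 95% counting intervals, and dotted lines mark 2-fold. Mgat5 and St3gal3 lie above 5 on the log2 scale in both libraries and Mgat4a lies lowest. The 2 libraries lie further apart for some members near the bottom of the order, such as B3galt5 at -1.55 and -0.76.

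Fut9 and Mgat3 depended on how the acinar classes were drawn. When the Myrfl/Kcne1 cluster, rich in both, was counted as seromucous, their mean log2 ratios were 0.75 and 0.82 and neither was called. The 11 mucous markers summed to 3.41% and 2.84% of UMIs in mucous acinar-like nuclei and to 0.194% and 0.260% in seromucous ones. The 17 seromucous markers summed to 2.24% and 3.55% in mucous and 4.20% and 5.66% in seromucous acinar-like nuclei. The part that seromucous or free RNA in mucous barcodes plays in the ratios was not tested. Mgat5 lies at chr1:127205015-127488336 on the plus strand of GRCm38 and overlaps Tmem163 on the other strand. Of the other members called higher, Galnt5 overlaps Ermn and B3gnt9 overlaps D230025D16Rik, each on the other strand. Whether the authors counted by strand is not given in the sources used here. Galnt12 lies at chr4:47091909-47123070, St3gal3 at chr4:117932154-118134914 and B3gnt6 at chr7:98192417-98199481 of the same build.

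RefSeq promoter windows, from 250 bases before to 50 after a start site on GRCm38.p6, were found for 5 of the 13 members that were higher in mucous acinar-like nuclei. They were searched on both strands for 3 short motifs of secretory-pathway regulators: CACGTG (an E-box), TGACGT (the core of CRE-like sites) and GGATGT (an ETS core of the kind SPDEF binds). The promoters of Mgat5, St3gal3 and Galnt5 are shown for their large ratios in this comparison. That of B3galt5 is shown because the gene marks the Myrfl/Kcne1 cluster and the window holds a match, given in capitals. In luminal duct-like over seromucous acinar-like nuclei Mgat5 and St3gal3 were called higher and Galnt5, at 0.05 and -0.09, was not called. The windows are chr1:127204736-127205035 on the plus strand for Mgat5, chr4:118134897-118135196 on the minus strand for St3gal3, chr2:57997905-57998204 on the plus strand for Galnt5 and chr16:96273263-96273562 on the plus strand for B3galt5, where it is 1 of 3 start sites.
Mgat5: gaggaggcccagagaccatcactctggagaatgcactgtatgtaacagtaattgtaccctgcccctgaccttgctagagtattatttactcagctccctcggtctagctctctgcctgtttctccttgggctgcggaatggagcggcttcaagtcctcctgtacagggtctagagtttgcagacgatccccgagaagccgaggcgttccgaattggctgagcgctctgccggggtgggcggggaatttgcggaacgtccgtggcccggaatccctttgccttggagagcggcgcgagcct
St3gal3: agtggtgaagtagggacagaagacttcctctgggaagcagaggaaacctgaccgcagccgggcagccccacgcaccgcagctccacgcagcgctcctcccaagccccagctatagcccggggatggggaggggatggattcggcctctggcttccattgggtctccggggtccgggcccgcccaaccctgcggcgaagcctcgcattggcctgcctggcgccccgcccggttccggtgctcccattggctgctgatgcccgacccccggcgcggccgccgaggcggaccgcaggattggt
Galnt5: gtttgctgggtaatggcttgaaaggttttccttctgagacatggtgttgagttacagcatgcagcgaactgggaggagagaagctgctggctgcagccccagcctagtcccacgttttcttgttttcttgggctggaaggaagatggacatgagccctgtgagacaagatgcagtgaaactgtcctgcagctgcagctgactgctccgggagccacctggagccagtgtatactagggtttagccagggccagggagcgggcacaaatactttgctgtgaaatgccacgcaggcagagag
B3galt5: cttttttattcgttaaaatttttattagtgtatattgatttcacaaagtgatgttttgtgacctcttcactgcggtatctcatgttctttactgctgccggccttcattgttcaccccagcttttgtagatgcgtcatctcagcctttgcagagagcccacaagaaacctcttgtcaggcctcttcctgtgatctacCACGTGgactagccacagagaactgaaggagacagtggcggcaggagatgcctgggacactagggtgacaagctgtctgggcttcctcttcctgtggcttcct
None of the 8 windows of the 5 matched genes (Mgat5, St3gal3, Galnt5, Fut8 and St3gal5) held any of the 3 motifs. Of 79 windows of 53 members, 5 held CACGTG, 4 TGACGT and 7 GGATGT, beside 7.15%, 7.51% and 11.1% of all 32851 windows. These are matches of letters in 1 window per start site and say nothing of which factors act there.

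Luminal duct-like nuclei, compared with seromucous acinar-like nuclei, had 13 of 42 members called higher, against 13.5% of all genes tested, and 10 called lower, against 4.95%. The higher members were Galnt18, Fut8, Galnt2, Galnt1, St3gal3, St6gal1, St6galnac2, Fut9, Mgat5, St3gal5, Mgat1, Mgat3 and Mgat4b. The lower ones were St3gal1, St3gal4, Mgat4a, Galnt3, St6galnac1, Galnt7, Gcnt2, B3galt5, Galntl6 and Galnt10. The median over the 42 members was -0.05 on the log2 scale, beside 0.12 over 12584 genes.

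Galnt18 had the highest ratio, 5.49 (5.18 to 5.82) and 5.70 (5.36 to 6.05). Fut8 followed at 3.21 and 3.53, St3gal3 at 2.80 and 3.34, Galnt2 at 2.95 and 2.54 and Galnt1 at 2.32 and 2.98. St6gal1, which adds alpha2,6-linked sialic acid, had 2.0 and 3.88, and its 42 and 13 seromucous UMIs make the null ratio less precise than the control one. The alpha2,3-sialyltransferase genes of the acini were lower, St3gal1 with ratios of -2.54 and -2.21 and St3gal4 with -2.48 and -2.20. Both levels in luminal duct-like nuclei were below those of free RNA, at 726 and 576 CPM for St3gal1 and 1206 and 789 CPM for St3gal4.

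Both comparisons are made against the same seromucous nuclei, so members that appear in both, such as Galnt2, Fut8 and St3gal3, are not independent observations. Side by side, Mgat5 had ratios of 5.80 and 5.54 in mucous acinar-like nuclei and 1.94 and 1.71 in luminal duct-like nuclei over seromucous ones, and Galnt18 had 1.77 and 2.19 and 5.49 and 5.70. Mgat3 was called in luminal duct-like nuclei at 1.14 and 1.38, but with the Myrfl/Kcne1 cluster counted as seromucous its mean ratio was -0.25, and that of Fut9 was 0.69, neither of them called. Mgat4b, at 1.02 and 1.09, sits close to the 2-fold limit. Tmem163, which overlaps Mgat5, is one of the genes that lead the luminal duct-like class.

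Genes that supply or share the pathway were taken from separate lists, and the same rule was applied to them. The shares of all genes tested, against which these counts stand, were 7.55% higher and 2.87% lower in the acinar comparison and 13.5% higher and 4.95% lower in the luminal duct one. Among 15 mucin genes, 3 had enough UMIs in the acinar classes. Muc19, the gel-forming mucin whose gene is also a mucous marker, was at 32338 and 26897 CPM in mucous and 862 and 1740.5 CPM in seromucous acinar-like nuclei and was called higher. Prol1, a secreted proline-rich mucin-like protein, was at 6767 and 8179 CPM in mucous and 16000.0 and 17288 CPM in seromucous acinar-like nuclei and was called lower. Prol1 is on the seromucous marker list, so its direction is not independent of the naming of the classes. Free RNA held more of it than either class, 25039 and 24343 CPM, and the part of free RNA in its mucous level was not tested. Muc13, a membrane mucin, was called higher in luminal duct-like nuclei, at 36.6 and 24.4 CPM against 0.987 and 0.513 CPM in seromucous acinar-like nuclei.

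Of 26 genes for sugar nucleotide synthesis and transport, all tested, 4 were called higher in mucous acinar-like nuclei and 0 lower, beside 7.55% and 2.87% of all genes tested. The 4 were Ugp2, which makes UDP-glucose, at 436 and 441 CPM against 65.5 and 64 CPM in seromucous acinar-like nuclei, the UDP-glucose dehydrogenase Ugdh at 11.7 and 13 CPM against 4.49 and 3.74 CPM, the CMP-sialic acid transporter Slc35a1 at 160.0 and 166 CPM against 74.4 and 67.9 CPM, and the UDP-N-acetylglucosamine transporter Slc35a3 at 73.4 and 51.2 CPM against 29.3 and 21.4 CPM. Among those called lower in luminal duct-like than in seromucous acinar-like nuclei were Uap1, Gne, Gfpt1 and Slc35a2, and Ugdh was called higher. Gne, the first enzyme of sialic acid synthesis, was at 375 and 309.9 CPM in luminal duct-like and 1697 and 1104 CPM in seromucous acinar-like nuclei, a difference in the same direction as that of St3gal1 and St3gal4.

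Of 22 other Golgi glycosyltransferase genes, 12 were tested in the acinar comparison, with B3galnt1, B4galt4 and B4galnt3 higher in mucous acinar-like nuclei and B4galt6 lower. B4galnt3 was at 32 and 17.6 CPM in mucous acinar-like nuclei and 72.5 and 34.9 CPM in the Myrfl/Kcne1 cluster against 0.987 and 1.25 CPM in seromucous acinar-like nuclei. In luminal duct-like nuclei 13 were tested, with B3galnt1 and B4galnt3 higher and B4galt1, B4galt6 and Abo lower. None of the 9 sulfotransferase genes reached the UMI minimum in the acinar comparison, and 1, Chst7, was tested and higher in luminal duct-like nuclei. Among 12 regulators of secretory cells, 8 were tested: Spdef, at 605 and 522 CPM in mucous and 239 and 243 CPM in seromucous acinar-like nuclei, and Foxa1, at 67.1 and 63.8 CPM and 25.8 and 25.1 CPM, were higher, and Bhlha15, at 162 and 151 CPM and 567 and 473 CPM, was lower. Spdef is a mucous marker and Bhlha15 a seromucous marker, so their direction was fixed by the naming of the classes. In luminal duct-like nuclei 5 of the 8 tested regulators were called lower, namely Spdef, Creb3l1, Xbp1, Ern1 and Bhlha15, and 0 higher. Bhlha15 is among the markers behind the name of the seromucous class, so its direction here is not independent of that naming either.

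Between genotypes few members of a class passed 2-fold. In mucous acinar-like nuclei 1 of 34 members with enough UMIs passed 2-fold, against 2.95% of all genes, and the median log2 ratio of null over control was -0.03 over the members and -0.04 over all genes. In seromucous acinar-like nuclei it was 2 of 47 (3.51%), with medians of -0.08 and -0.08. Luminal duct-like nuclei had 1 of 38 (2.58%), with medians of -0.02 and -0.04, and fibroblast-like nuclei 2 of 48 (3.93%), with 0.08 and -0.01. These shares are near the background, so the count of called members is not a result about these enzymes. Intervals off 0, whatever the size of the ratio, were more common among members than among all genes in some classes. An interval off 0 was found for 50% of members in the Myrfl/Kcne1 cluster (13.3% of all genes) and 31.8% in ionocyte-like nuclei (12.8%). It was 41.7% (28.6%) in fibroblast-like nuclei and 30% (12.5%) in the Knl1/Neil3 cluster. Narrower gaps were found in Schwann-like (21.1% and 14.7%), myoepithelial and basal-like (19.4% and 15.5%), mucous acinar-like (20.6% and 17.5%) and Pex5l/Unc5c nuclei (22.6% and 20.1%). In seromucous acinar-like (40.4% and 41.4%), luminal duct-like (18.4% and 23.6%) and intercalated duct-like nuclei (7.41% and 16.1%) members did not exceed all genes. The same held for endothelial-like (9.52% and 10.6%) and macrophage-like nuclei (12.9% and 15.8%). An interval leaves out 0 more easily for genes with many UMIs, as several members have. The shares therefore do not show that members differed by more than other genes, and the part of depth was not tested.

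The enzymes that set mucous acinar-like nuclei apart differed by less than 2-fold between the libraries there. Null over control, the log2 ratio in mucous acinar-like nuclei was 0.13 (-0.07 to 0.32) for Galnt12, -0.20 (-0.48 to 0.09) for St3gal3 and 0.62 (-0.10 to 1.39) for B3gnt6. Mgat5 was lower in the null library, at -0.44 (-0.55 to -0.33), without reaching 2-fold. In seromucous acinar-like nuclei, St3gal1 (-0.22), St3gal4 (-0.35), Galnt7 (-0.45), C1galt1 (-0.50) and Mgat4a (-0.31) had ratios below 0 with intervals that left out 0 and did not reach 2-fold. Galnt3, at -0.03 (-0.09 to 0.02), and Galnt10, at 0.05 (-0.01 to 0.11), had intervals that included 0. Over the same nuclei the 8 secretory genes took 16.2% of control and 20.7% of null UMIs, and their part in these differences was not tested.

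In these 4 classes the members past 2-fold had at most 42 UMIs in either library. In mucous acinar-like nuclei Fut11 went from 24 UMIs in the control to 22 in the larger null class, a log2 ratio of -1.02 (-1.92 to -0.12). In seromucous acinar-like nuclei the secretor gene Fut2 had 7 and 21 UMIs and a ratio of 1.29 (0.0 to 2.77), and St6gal1 had 42 and 13 UMIs and a ratio of -1.98 (-3.01 to -1.06). St3gal6 in luminal duct-like nuclei had 8 and 22 UMIs and a ratio of 1.58 (0.36 to 2.96). In fibroblast-like nuclei Galnt13 had 28 and 5 UMIs and Mgat4c 23 and 6 UMIs, and 1 control nucleus held 21 of the 28 Galnt13 UMIs and 1 held 21 of the 23 Mgat4c UMIs. Those 2 ratios, -2.66 and -2.12, therefore describe single nuclei.

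St6gal1 and St3gal6 were called in the same direction in more than 1 class. St6gal1 was lower in null than in control seromucous acinar-like, Schwann-like and macrophage-like nuclei, with 207 and 95 UMIs over 124 and 83 macrophage-like nuclei, a ratio of -1.15 (-1.52 to -0.79), and with 52 and 24 UMIs and a ratio of -1.02 (-1.78 to -0.29) in Schwann-like nuclei. The background was 3.44% in macrophage-like and 6.83% in Schwann-like nuclei. St6gal1 ratios were -0.88 (-2.0 to 0.16) in endothelial-like, -0.31 (-0.64 to 0.02) in myoepithelial and basal-like, -0.14 (-0.48 to 0.19) in fibroblast-like, -0.10 (-0.73 to 0.52) in luminal duct-like nuclei and -0.77 (-1.02 to -0.52) in free RNA, so the direction was the same in each, and the interval of those 4 nuclear classes included 0. St3gal6 was higher in null luminal duct-like and Pex5l/Unc5c nuclei and ran the other way in seromucous acinar-like nuclei, at -0.77 (-1.53 to -0.03). The macrophage-like class also carried lymphoid markers, which summed to 0.136% of its control and 0.130% of its null UMIs, and their part in the St6gal1 difference was not tested.

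The remaining calls were in other classes. The Myrfl/Kcne1 cluster had 1 of 20 (3.85%), B3galt2, from 5 and 26 UMIs, a ratio of 1.82 (0.41 to 3.55). B3galt2 lies within Cdc73 on the other strand. Pex5l/Unc5c nuclei had 2 of 31 (3.06%), Fut11 at 1.04 and St3gal6 at 1.52. Myoepithelial and basal-like nuclei had 2 of 31 (3.3%), Mgat4b at 1.03 and Galnt14 at -1.80, the latter from 32 and 9 UMIs, in the class that held 32 of the 39 control UMIs of this gene. Schwann-like nuclei had Fut8, at -1.49, beside St6gal1. Of the 27 intercalated duct-like members tested (3.19%), 22 ionocyte-like (3.72%), 21 endothelial-like (4.45%) and 10 in the Knl1/Neil3 cluster (5.29%), 0 passed 2-fold.

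**Figure D4:**
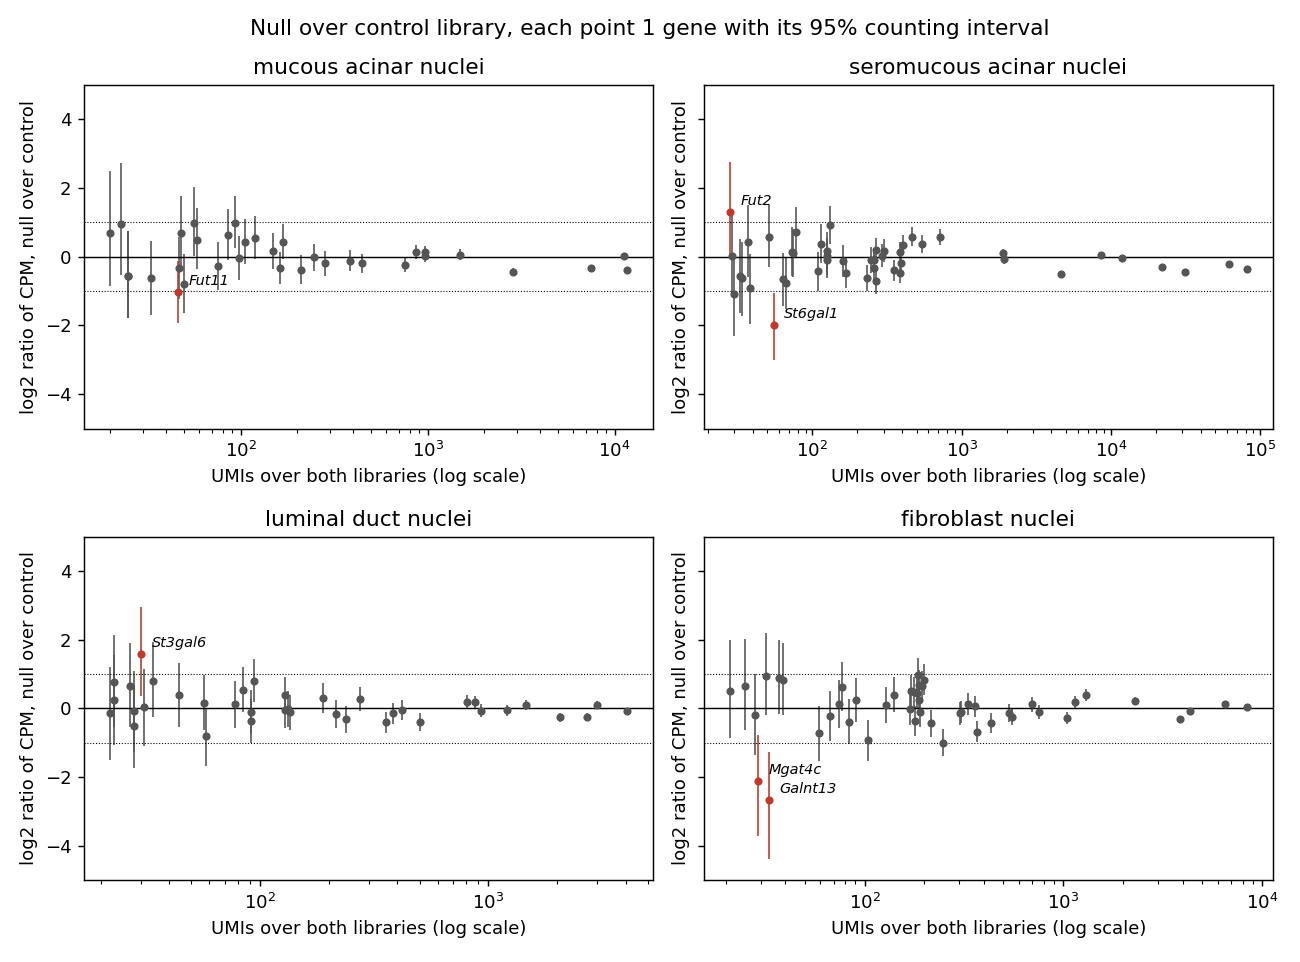
Log2 ratio of CPM, null over control, for each member with at least 20 UMIs in mucous acinar-like, seromucous acinar-like, luminal duct-like and fibroblast-like nuclei, against its UMIs over both libraries on a log axis. Lines are 95% counting intervals, dotted lines mark 2-fold, and red points passed it with an interval off 0. The red points all lie at the low end of the UMI axis, and members with over 1000 UMIs lie between the dotted lines.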

How the data were processed

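The libraries were single-nucleus RNA libraries (10x Chromium 3' v2 chemistry, per the labels' protocols) of 1 control and 1 null salivary gland sample. The deposited matrices hold raw UMI counts per gene and barcode, which the authors made on GRCm39, per the submitters' processing notes, with Cell Ranger 7.0.0, per the file headers; the annotation, intron counting and strand setting are not given in the sources used here. The members and gene lists were chosen with earlier results of these data known.

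Barcodes were kept from 500 UMIs and 300 detected genes upward, when mitochondrial UMIs made up less than 5%. Counts were log-normalized, 2000 variable genes (without members, mitochondrial, ribosomal and sex-linked genes and Csf2) were scaled and capped at 10, and 30 components, 20 neighbours and Leiden at resolution 1.0 (Scanpy 1.11.5) gave 17 clusters. Scaling was chosen after the unscaled clustering had merged duct classes. A cluster was free RNA when its share of the 8 most abundant secretory genes (Mucl2, Scgb1b27, Scgb2b27, Prol1, Smgc, Scgb2b26, Pip and Car6) was at least 0.75 of that in barcodes under 1000 UMIs. The other clusters were named from at least 3 detected markers. Scrublet marked 237 of 8657 control and 4 of 14273 null nuclei as doublets, a share of 0.028% that means it did not work in the null library, so no nuclei were removed.

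Counts were summed per class and library and divided by the class total (CPM). Ratios have exact conditional binomial intervals and levels exact Poisson intervals, at 95%, with SciPy 1.17.1; genes needed at least 20 UMIs. UMIs of 1 library are not replicates, so no p-value is given. The procedure was run on simulated Poisson counts drawn from a pooled profile, with no variation between nuclei or libraries and no free RNA. That run therefore covers counting error only. In it, 0.00826% of unchanged genes were called for mucous over seromucous acinar and 1.01% for null over control in mucous acinar. Genes changed 3-fold were called correctly in 83% and 97%. The members described in the text are all those called, the 3 highest per class, and fixed core and terminal enzymes. Alternatives in filters, clustering, scaling, free RNA and doublets are in the closing section. Gene positions are GENCODE M21 on GRCm38, another build than that of the files. One result for a gene of the sugar nucleotide list is not reported here.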

Additional observations from a re-analysis of the deposited data

Results flagged for a closer look

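For 2 members the null library lay higher in one class and lower in another, each by at least 1.5-fold with an interval off 0. The difference between the classes was not tested, since each genotype had 1 library. Fut11 had a log2 ratio of null over control of 1.04 (0.08 to 2.07) in Pex5l/Unc5c nuclei, on 14 and 30 UMIs, and of -1.02 (-1.92 to -0.12) in mucous acinar-like nuclei, on 24 and 22 UMIs. St3gal6, an alpha2,3-sialyltransferase, had ratios of 1.52 (0.39 to 2.80) in Pex5l/Unc5c, 1.58 (0.36 to 2.96) in luminal duct-like and 0.83 (0.40 to 1.28) in fibroblast-like nuclei, against -0.77 (-1.53 to -0.03) in seromucous acinar-like nuclei. The seromucous counts of St3gal6 were 39 in 30 control nuclei and 28 in 28 null nuclei, and the fibroblast-like counts 66 in 59 and 133 in 122 nuclei. The St3gal6 gene overlaps Dcbld2 on the other strand. In free RNA St3gal6 was lower in the null library, at -0.55 (-0.78 to -0.33).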

How the results depend on the processing

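The comparison of mucous with seromucous acinar-like nuclei gave 12 to 19 called members under all alternatives run, and that of luminal duct-like with seromucous nuclei 20 to 30, against 15 and 23 as reported. With the control library left out they were 18 and 26, and with the null library left out 19 and 26. The direction changed once: Mgat3 in luminal duct-like nuclei was -0.25 with the Myrfl/Kcne1 cluster counted as seromucous. The few members past 2-fold between genotypes moved with most settings. In mucous acinar-like nuclei, 1 as reported, it was 0 with at least 1000 UMIs per barcode, with 4000 variable genes or with a minimum of 50 UMIs per gene, 2 under median-of-ratios scaling, and 3 with a minimum of 10 UMIs or none. In seromucous acinar-like nuclei, 2 as reported, it was 1 with 4000 variable genes or a minimum of 50 UMIs. In luminal duct-like nuclei, 1 as reported, it was 4 with 4000 variable genes, 2 with free RNA subtracted, with a minimum of 10 UMIs, with none or without Scrublet doublets, and 0 with a minimum of 50. In fibroblast-like nuclei, 2 as reported, it was 8 with free RNA subtracted, 4 without Scrublet doublets and 0 with a minimum of 50; Galnt13 there was -0.53 with at least 1000 UMIs per barcode and -0.52 with 4000 variable genes, and not called. Apart from the UMI minimum, which changes the genes tested, the cause of these moves was not tested. Unscaled clustering and the joined acinar class were added after the data were seen. Free RNA was not subtracted in acinar-like classes, which make the secretory genes themselves. No paired analysis was possible because each genotype has 1 library. Depth limits the calls between genotypes: in all but macrophage-like nuclei they rest on at most 52 UMIs in either library.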
